A study of Homo sapiens with 30 samples.

Results

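RRAS2, RRAS, MRAS, NRAS, HRAS, RAP1A and RAP1B encode small GTPases of the RAS branch. They were read through every probe set that the platform annotation assigned to 1 of these symbols alone, and this gave 12 of the 54613 probe sets on the array. RRAS2 had 3 probe sets, RAP1A 4, MRAS 2, and RRAS, HRAS and RAP1B 1 each, while NRAS had 0 and is not analysed here. Of the 12 probe sets, 10 passed a low-signal filter, which asked for 3 or more arrays above 5.013, the median of all values. The exceptions were RAP1A 1555339_at and 1555340_x_at.

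RAS proteins are molecular switches that bind GTP in their active form and GDP in their inactive form. Exchange factors load GTP, and GTPase activating proteins speed its hydrolysis. RRAS2, also called TC21, and its relatives RRAS and MRAS form the R-RAS group, which signals through PI3 kinase and RAF kinases and is linked to adhesion and survival. HRAS is a classical RAS oncoprotein, and RAP1A and RAP1B act on integrins and cell junctions. RRAS2 has been reported in myeloma as a target of the histone methyltransferase NSD2.

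The cells were KMS11, a human multiple myeloma line in which a translocation places NSD2 (MMSET) under strong control and makes it abundant. Gene expression was measured on 30 Affymetrix U133 Plus 2.0 arrays, 3 biological replicates in each of 10 lines. PAR is parental KMS11 and TKO is a KMS11 line with a knockout of NSD2. Loss of NSD2 protein in TKO was not measured here, and array values of NSD2 are given below. The other 8 lines were reconstituted with a transgene. WT carries wild-type NSD2 and CDM a catalytic dead mutant of it. H762Y carries NSD2 with that substitution, which lies in a PHD finger, a zinc-binding domain. The 526-1240 and 526-1365 lines carry NSD2 fragments named by their residues, which keep the catalytic SET domain. MMSET1 carries the MMSET I isoform, which lacks the SET domain. The lines WT+MMSET1 and CDM+MMSET1 express this isoform together with the longer protein. A vector control is not among these groups, and each transgene or pair of transgenes was read in a single line. Within a line, effects of what it carries cannot be told apart from those of making that line. Wild-type NSD2, the catalytic dead mutant and MMSET I were each carried by more than 1 line, alone or in a pair. The labels do not say whether a line is 1 clone.

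Levels are log2 RMA values as the authors deposited them, in which a difference of 1 is a 2-fold difference. RMA gives no call of presence. A line mean below that median of 5.013 is termed dim, and a fold against a dim mean describes array values and not RNA. A difference was called at an adjusted p under 0.05 in limma's moderated test, adjusted by Benjamini and Hochberg over all 54613 probe sets. In bulk RNA, fewer cells with a transcript and less transcript in each cell cannot be told apart.

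Array medians lay between 4.986 and 5.039. Of 13 plasma cell and myeloma markers, 11 lay above 5.013 in all 10 lines, while SLAMF7 was dim in all 10 and CD38 in 1. All 5 monocyte markers, 3 of 5 T cell and 3 of 5 epithelial markers were dim in every line, and the epithelial adhesion gene EPCAM was not (6.49 to 9.95). Of 5 fibroblast markers 2 were dim in every line and 2 in none, and of 4 measured erythroid markers 1 was dim in every line and 3 in none. The mean of the erythroid list ranged from 5.58 to 6.92 over the lines. The part of these signals in the results was not tested. The 6 NSD2 probe sets still read between 7.39 and 10.18 in TKO. The sources used here do not give the deleted part of NSD2, so they do not check the knockout. Replicate 1 of H762Y stood apart, with a correlation of 0.980 and 0.981 to the other arrays of that line, which correlated with each other at 0.998.

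Promoter windows from RefSeq were used for 6 of the 7 genes, and 4 starts of RRAS2 are among them. Windows of 250 bases before the start are shown for a pair of the RRAS2 starts, because RRAS2 had the largest differences of these genes and its starts differ in base composition. Both are given 5′ to 3′ on the minus strand of GRCh38.p14, with GC boxes (GGGCGG on either strand) in capitals. The array does not tell which start is used.
RRAS2, chr11:14364507-14364756: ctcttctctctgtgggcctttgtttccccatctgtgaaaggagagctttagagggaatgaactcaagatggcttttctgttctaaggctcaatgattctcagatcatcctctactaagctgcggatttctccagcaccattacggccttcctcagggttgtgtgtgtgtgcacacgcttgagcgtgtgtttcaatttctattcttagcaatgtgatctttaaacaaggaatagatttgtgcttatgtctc
RRAS2, chr11:14359184-14359433: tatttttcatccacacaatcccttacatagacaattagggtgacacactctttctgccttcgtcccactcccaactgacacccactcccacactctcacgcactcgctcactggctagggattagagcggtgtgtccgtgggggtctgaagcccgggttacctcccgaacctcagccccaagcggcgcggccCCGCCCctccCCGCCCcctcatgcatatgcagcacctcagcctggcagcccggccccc
The first window precedes the outermost start, with 44.0% GC, 4 CpG dinucleotides and 0 GC boxes. The second lies within the span of the gene, before a start further in, with 61.6% GC, 13 CpG and 2 GC boxes. The other RRAS2 starts, with windows at chr11:14358468-14358717 and chr11:14342133-14342382, had 77.2% and 40.0% GC, 32 and 2 CpG and 3 and 0 GC boxes. Over all 35116 windows of this length the median GC content was 58.0% and the median number of CpG 11, and 42.6% held a GC box. The CCAAT box (CCAAT, 32.0% of windows), the TATA box (TATAAA, 10.7%) and the AP-1 site (TGACTCA, 4.2%), searched on both strands, were in none of the 4 RRAS2 windows. Among the other measured genes, the listed windows held 3 GC boxes in HRAS, 6 in RAP1B, 0 in RAP1A and 0 to 4 over the 3 MRAS starts.

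RRAS2 fell into separate ranges across the lines. On its brightest probe set, 212589_at, the PAR arrays read 7.73, 7.84 and 8.14 and the TKO arrays 2.98, 3.002 and 3.13. PAR stood at 7.90 ± 0.21 (SD, n = 3) and TKO, which was dim, at 3.04 ± 0.079. The difference of 4.87 (SE 0.139, limma adjusted p = 2.17e-18) is 29.2-fold in array values. The WT arrays read 6.61, 6.90 and 6.89, above every TKO array and below every PAR array. WT was 3.77 above TKO (adjusted p = 1.78e-15 in limma) and 1.10 below PAR, with a WT minus PAR difference of -1.10 (95% interval -1.39 to -0.81, limma adjusted p = 3.77e-06).

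The fragment lines and the line with both proteins stood near WT. The 526-1240 arrays read 6.53, 6.84 and 6.72, the 526-1365 arrays 6.55, 6.76 and 6.496, and the WT+MMSET1 arrays 6.83, 6.94 and 6.90. These 3 lines were higher than TKO by 3.66, 3.57 and 3.85 (limma adjusted p of 1.27e-15, 2.01e-15 and 6.76e-16). The arrays of each overlapped those of WT, and none of the 3 was called different from WT in limma.

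RRAS2 was also dim in the lines with the catalytic dead mutant, the PHD finger mutant or MMSET I alone. The CDM arrays read 2.92, 2.63 and 2.77, the CDM+MMSET1 arrays 3.19, 2.78 and 2.85, the MMSET1 arrays 2.68, 2.73 and 2.95, and the H762Y arrays 2.52, 2.88 and 3.12. All CDM and MMSET1 arrays lay below the TKO arrays, while the other lines overlapped TKO. None of the 4 was called different from TKO. Replicate 1 of H762Y, which stood apart over all probe sets, had the lowest RRAS2 value of all 30 arrays. H762Y minus TKO was -0.20, or -0.04 without that replicate. H762Y lay below WT with a difference of -3.96, or -3.80 without that replicate (limma adjusted p = 9.50e-16 and 4.66e-15).

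**Figure D1:**
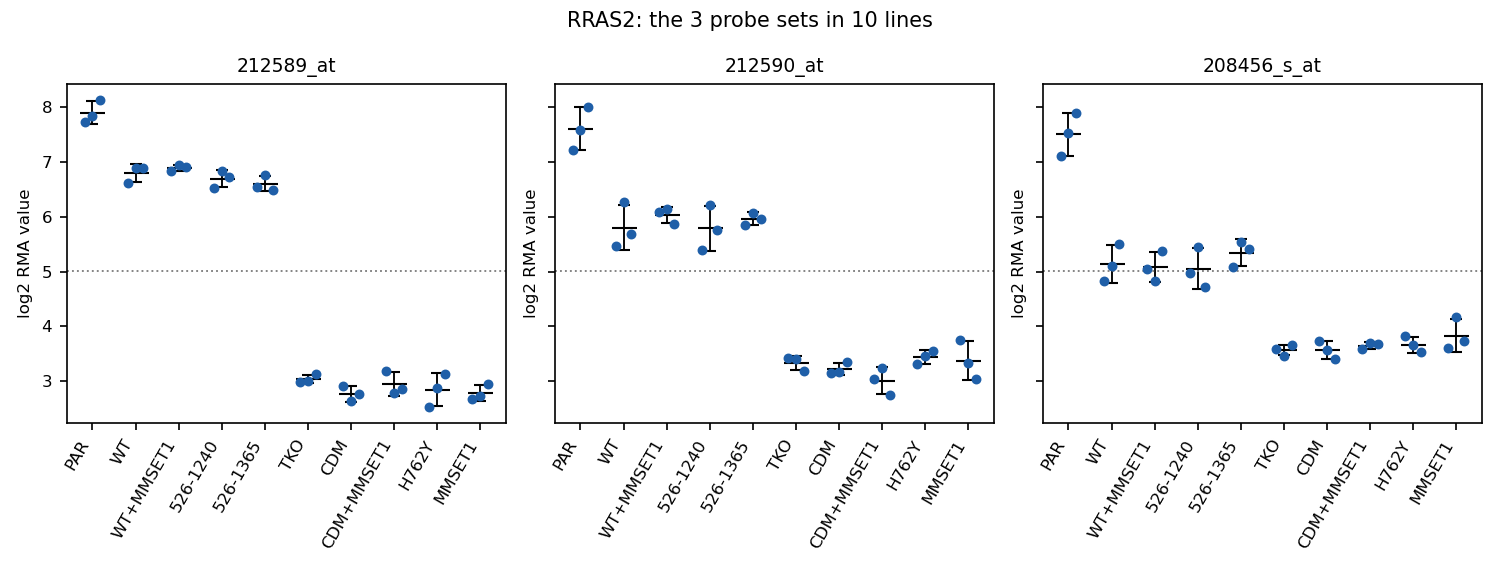
RRAS2 on its 3 probe sets in the 10 lines. Points are single arrays (log2 RMA value), bars the mean ± SD of 3 arrays, and the dotted line the median of all values, 5.013. On 212589_at the arrays of PAR, WT, both fragment lines and WT+MMSET1 lie between 6.496 and 8.14 and those of the other 5 lines between 2.52 and 3.19.

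The order of the line means on 212589_at was PAR (7.90), WT+MMSET1 (6.89), WT (6.80), 526-1240 (6.70), 526-1365 (6.60), TKO (3.04), CDM+MMSET1 (2.94), H762Y (2.84), MMSET1 (2.79) and CDM (2.77). Among the 9 steps between neighbours, the step of 1.01 from PAR to WT+MMSET1 and the step of 3.57 from 526-1365 to TKO were called (limma adjusted p = 1.22e-05 and 2.01e-15). The other 7 steps were not called. Of all 45 pairs of lines, 29 were called on each of the 3 RRAS2 probe sets. These were all 25 pairs between a line with an unsubstituted NSD2 form that keeps the SET domain (PAR, both fragments, WT and WT+MMSET1) and another line, and the 4 pairs of PAR with the remaining lines of the first kind. None of the 10 pairs among TKO, CDM, CDM+MMSET1, H762Y and MMSET1 was called.

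Active and catalytic dead NSD2 were set against each other with and without MMSET I. WT exceeded CDM by 4.03 on 212589_at and WT+MMSET1 exceeded CDM+MMSET1 by 3.95 (SE 0.139, limma adjusted p = 6.30e-16 and 1.03e-15). The difference between these differences was -0.08 (adjusted p = 0.9998 in limma), so it was not called. Both comparisons rest on separate arrays. Adding MMSET I to WT gave 0.09 and adding it to CDM gave 0.17 on this probe set, and neither was called.

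The other RRAS2 probe sets placed the same lines high and low, with a larger gap between PAR and the 4 transgene lines high in RRAS2. On 212590_at PAR read 7.23, 7.59 and 8.01, WT 5.46, 6.26 and 5.69, and TKO 3.42, 3.39 and 3.18. On 208456_s_at PAR read 7.11, 7.53 and 7.89, WT 4.82, 5.10 and 5.51, and TKO 3.58, 3.47 and 3.66. PAR exceeded TKO by 4.28 and 3.94 on these probe sets, and WT exceeded TKO by 2.47 and 1.58 (limma adjusted p from 5.45e-14 for the first to 2.95e-06 for the last).

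The distance of WT from PAR therefore depended on the probe set, at -1.10 on 212589_at, -1.81 on 212590_at and -2.36 on 208456_s_at (95% interval -2.78 to -1.95). The value of 212589_at less that of 208456_s_at was taken on each array. It spanned 0.25 to 0.62 in PAR, 1.38 to 1.79 in WT, 1.53 to 2.11 in WT+MMSET1, 1.39 to 2.00 in 526-1240 and 1.08 to 1.47 in 526-1365. The arrays of each of these 4 lines lay above all PAR arrays, which the 4 comparisons share. This value was chosen after the differences by probe set had been seen, and is given without a test. Whether the probe sets read different transcripts of RRAS2, or respond differently to the same change, was not tested.

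RRAS, a close relative of RRAS2 in the R-RAS group, set TKO apart from the other lines. Its only probe set, 212647_at, read 7.53, 7.59 and 7.29 on the TKO arrays and between 6.10 and 6.95 on the other 27 arrays. No array of another line reached the TKO range. All 9 other lines were lower than TKO in limma, by a difference of -0.76 in PAR (adjusted p = 0.00199), -0.87 in WT, -0.85 in CDM, -0.99 in H762Y (-0.98 without its replicate 1), -0.91 in MMSET1, -0.79 in 526-1240, -0.93 in 526-1365, -1.08 in CDM+MMSET1 and -1.15 in WT+MMSET1 (adjusted p = 1.06e-05). These 9 comparisons share the 3 TKO arrays. The other 36 pairs of lines were not called, and WT minus CDM was -0.01 (95% interval -0.35 to 0.32).

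MRAS, the third member of the R-RAS group, was called in 0 of the 45 pairs of lines on either probe set in limma. Line means lay between 4.80 and 5.18 on 225185_at and between 4.86 and 5.08 on 206538_at, at the median of all values, with 7 and 8 of 10 lines dim. The nearest to a call among the main contrasts was WT minus CDM on 225185_at (0.38, 95% interval 0.09 to 0.68, limma adjusted p = 0.0963). The SE was 0.143 on 225185_at and 0.113 on 206538_at, so the spread between arrays was not large. At this low signal, differences describe array values and not RNA.

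HRAS, a classical RAS gene, had its highest line mean in TKO and its lowest in WT and WT+MMSET1, the lines reconstituted with wild-type NSD2. Its probe set 212983_at read 8.91, 8.93 and 9.11 in TKO, 7.59, 7.83 and 7.83 in WT, and 7.73, 7.91 and 8.01 in WT+MMSET1. The arrays of these lines did not overlap those of TKO. WT minus TKO was -1.24 (SE 0.207, limma adjusted p = 9.61e-05) and WT+MMSET1 minus TKO -1.10 (adjusted p = 0.000329). The fragment lines were also lower than TKO, by -0.73 in 526-1240 and -0.87 in 526-1365 (limma adjusted p = 0.0120 and 0.00335), and their differences from WT were not called. The call of 526-1240 was lost without TKO replicate 3 (-0.67, limma adjusted p = 0.0514).

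PAR did not share the low HRAS signal of WT. Its arrays read 8.12, 8.72 and 8.94, and PAR minus TKO was -0.39 (95% interval -0.82 to 0.04, limma adjusted p = 0.275). WT lay below PAR by -0.85 (adjusted p = 0.00555 in limma), which was lost without PAR replicate 3 (-0.67, adjusted p = 0.0534). CDM read 8.28, 8.29 and 8.48, so all WT arrays were lower, but WT minus CDM at -0.60 missed the threshold (limma adjusted p = 0.0705). It was called when the 2 lines were fitted alone (adjusted p = 0.00937). WT+MMSET1 lay below CDM+MMSET1 by -0.68 (adjusted p = 0.0285), a call lost on leaving out any of the 3 CDM+MMSET1 replicates or replicate 1 or 2 of WT+MMSET1, with adjusted p up to 0.124.

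HRAS was spread widely in H762Y, where the arrays read 7.67, 8.82 and 8.78. Replicate 1 lay in the range of WT and the other arrays lay above it. H762Y minus WT was 0.67 with all arrays (limma adjusted p = 0.0547) and 1.05 without replicate 1 (adjusted p = 5.36e-05). H762Y minus TKO was -0.57 and not called. It was -0.19 without H762Y replicate 1 (adjusted p = 0.572), and was called without replicate 2 (-0.76) or 3 (-0.74). CDM minus TKO was -0.64 and MMSET1 minus TKO -0.54, and neither was called. Both were called when only the 2 lines compared were fitted (limma adjusted p = 0.00523 and 0.0196). The replicate numbers of CDM and of MMSET1 paired with those of TKO, and adding the number as a block to these fits gave adjusted p = 0.00333 and 0.0148. With and without that block, the fits of 2 lines called 2 probe sets of the family in each comparison in place of 1. The share of all probe sets called in these fits is not given here, so these counts are not read as a result about the family.

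RAP1A, a GTPase that controls integrins, had its lower line means in the lines high in RRAS2, on its 2 brighter probe sets. On 202362_at the arrays read 10.17, 10.48 and 10.65 in PAR, 10.34, 10.85 and 10.39 in WT, 10.75, 10.94 and 11.11 in TKO, and 11.02, 10.90 and 11.18 in CDM. The WT and TKO arrays overlapped, while the WT and CDM arrays did not. All 5 lines high in RRAS2 had lower means (10.44 to 10.68) than all 5 lines low in RRAS2 (10.88 to 11.03). Over the 10 line means the correlation with RRAS2 was -0.948 on 202362_at and -0.901 on 228548_at, given as a description because line means share their arrays' scaling.

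In limma, 7 of the 45 pairs of lines were called on 202362_at and 12 on 228548_at. Of the 25 pairs between a line high and a line low in RRAS2, 7 and 11 were called. Each call given below that limma made with all arrays was lost on leaving out certain single replicates, which also leaves fewer arrays to the test. On 202362_at PAR minus TKO was -0.50, 526-1240 minus TKO -0.45 and WT minus CDM -0.51, with limma adjusted p of 0.0436, 0.0476 and 0.0476. Each of these calls was lost when only the lines compared were fitted. They were also lost on leaving out single replicates: PAR 1 or 2 or TKO 2 or 3 for the first (adjusted p up to 0.240), 526-1240 replicate 1 or 3 or TKO 2 or 3 for the second (up to 0.219), and any CDM replicate or WT 1 or 3 for the third (up to 0.213). WT minus TKO, at -0.41, was called without WT replicate 2 (-0.57, adjusted p = 0.0160). H762Y minus WT was 0.36 (adjusted p = 0.206 in limma) and 0.51 without H762Y replicate 1, where it was called (adjusted p = 0.0332).

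On 228548_at the WT arrays read 5.87, 6.14 and 5.67 and the CDM arrays 6.52, 6.47 and 6.70. All CDM arrays were above all WT arrays, and WT minus CDM was -0.67 (SE 0.161, limma adjusted p = 0.00950). The call was lost without CDM replicate 3 (-0.60, adjusted p = 0.0580) or WT replicate 3 (-0.56, adjusted p = 0.0667). PAR minus TKO was -0.56 (adjusted p = 0.0209), and lost without PAR replicate 1 (-0.47) or TKO replicate 1 (-0.56) or 3 (-0.55). WT+MMSET1 minus CDM+MMSET1 was -0.51 (adjusted p = 0.0320), and lost without any CDM+MMSET1 replicate or WT+MMSET1 replicate 1 or 3, with adjusted p up to 0.127. H762Y minus WT was 0.53 (adjusted p = 0.0491) and 0.73 without H762Y replicate 1 (adjusted p = 0.00189), whose value of 6.04 lay among the WT arrays. That call was lost without H762Y replicate 2 (0.41) or 3 (0.47), or WT replicate 1 (0.52) or 3 (0.42). The remaining RAP1A probe sets were dim in all 10 lines (4.41 to 4.78 on 1555339_at and 3.15 to 3.35 on 1555340_x_at). Of these, 1555339_at was called lower in WT+MMSET1 than in TKO (-0.37, limma adjusted p = 0.0217), which was lost without TKO replicate 1 (-0.35) or WT+MMSET1 replicate 1 (-0.27) or 2 (-0.34).

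RAP1B, the close homologue of RAP1A, stayed within a narrow range of high signal. Line means of 200833_s_at lay between 12.14 in TKO and 12.43 in CDM+MMSET1. That pair was the only 1 of 45 called, at 0.29 (SE 0.0692, limma adjusted p = 0.00726), and it was lost when the 2 lines were fitted alone (adjusted p = 0.0526). WT minus TKO was 0.18 (95% interval 0.03 to 0.32, limma adjusted p = 0.0714), and was called without TKO replicate 1 (0.22, adjusted p = 0.0427). WT minus CDM was -0.04.

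**Figure D2:**
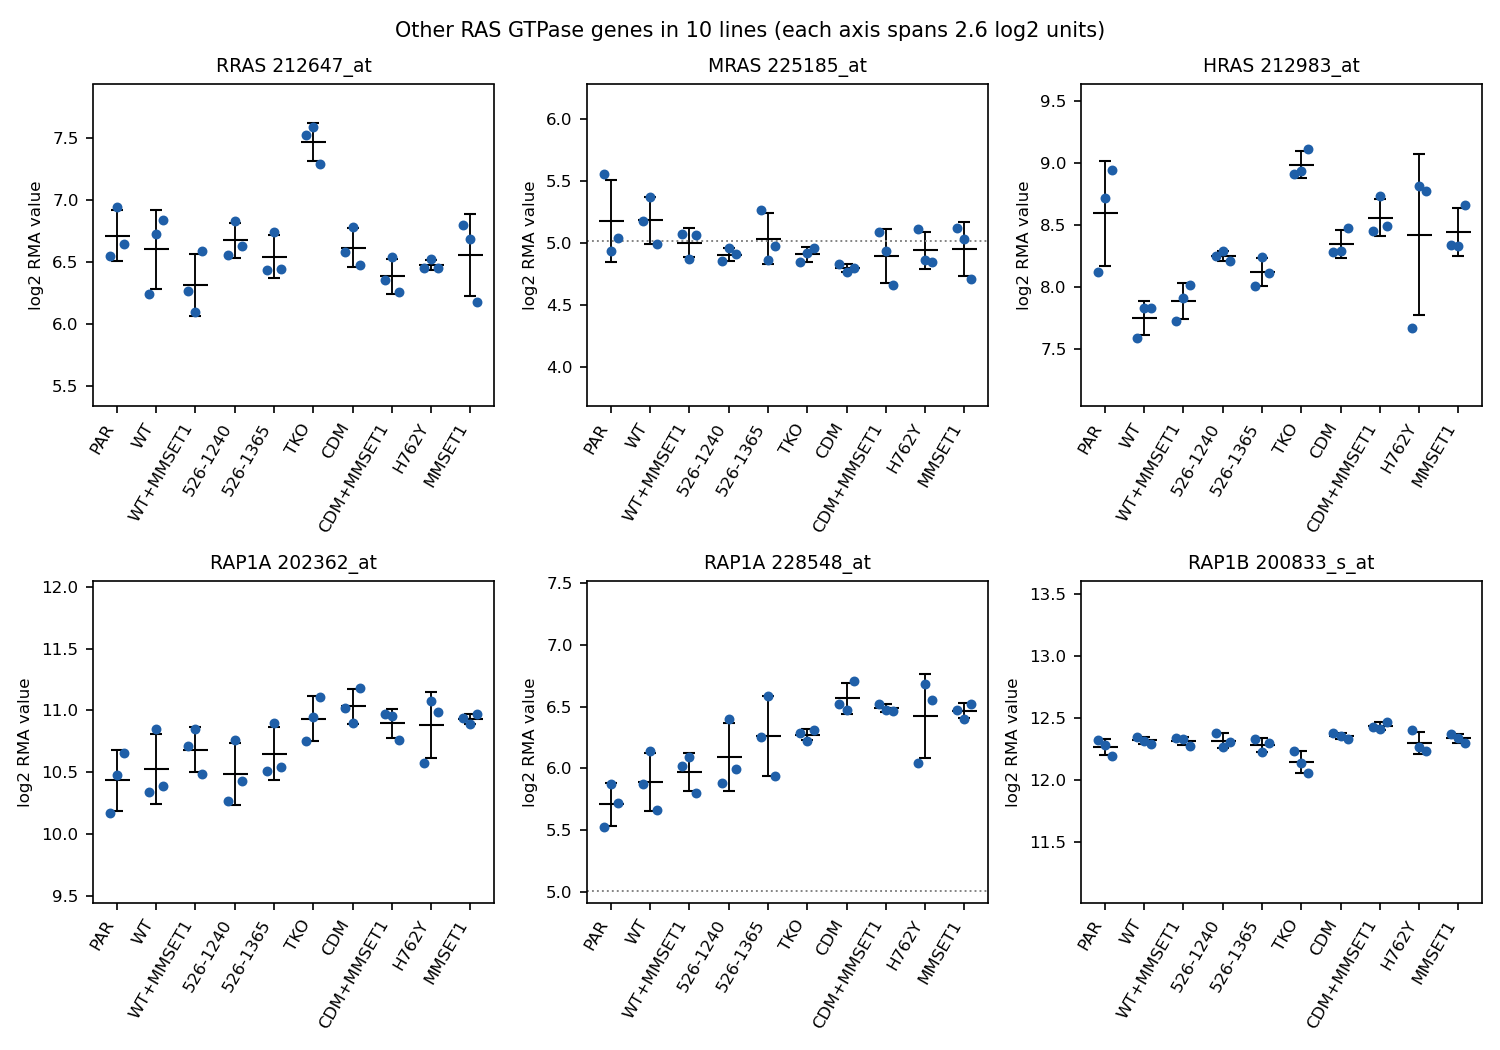
The other RAS GTPase genes in the 10 lines. Points are single arrays (log2 RMA value), bars the mean ± SD of 3 arrays, the dotted line, where it falls in range, the median of all values, and each axis spans the same log2 range. RRAS is highest in TKO, HRAS is highest in TKO and lowest in WT, and RAP1B stays between 12.06 and 12.47 on all arrays.

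The number of called probe sets of the family was read against the share of all probe sets called in the same comparison. PAR minus TKO called 6 of 12, 3 higher on RRAS2 and 3 lower on RRAS and RAP1A, where 10.9% of all probe sets were called. WT minus TKO called 5 of 12 (21.3% of all), WT+MMSET1 minus TKO 6 (20.9%), 526-1240 minus TKO 6 (20.7%) and 526-1365 minus TKO 5 (20.6%). In each of these 4 comparisons the 3 RRAS2 probe sets were higher, and RRAS and HRAS were lower. These comparisons share the TKO arrays. The 3 RRAS2 calls in each come from a single gene, so the counts do not by themselves show more calls across the family.

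The lines low in RRAS2 gave few calls against TKO. This grouping left little room for calls on the 3 RRAS2 probe sets among the 12, because TKO was itself low on them. CDM minus TKO called 1 of 12 (8.61% of all), H762Y minus TKO 1 (8.72%), MMSET1 minus TKO 1 (8.35%) and CDM+MMSET1 minus TKO 2 (8.74%). RRAS was called in all 4 and RAP1B in the last. The counts of 1 are near the background. WT minus PAR called 4 of 12 (15.5% of all), the 3 RRAS2 probe sets and HRAS, all lower in WT.

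WT minus CDM called 5 of 12 (8.74% of all) and WT+MMSET1 minus CDM+MMSET1 5 (14.4%). RRAS2 was higher in both on its 3 probe sets, RAP1A was lower on 2 probe sets in the first, and RAP1A 228548_at and HRAS were lower in the second. H762Y minus WT called 4 of 12 (5.68% of all), with RRAS2 lower on 3 probe sets and RAP1A 228548_at higher. Without H762Y replicate 1, HRAS and RAP1A 202362_at were also called. The share of all probe sets called in that fit is not given here, so the added calls are not read as a result about the family.

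In the remaining comparisons, limma called 0 of 12. This held for 526-1240 minus WT (0.718% of all probe sets called), 526-1365 minus WT (0.461%), 526-1365 minus 526-1240 (0.00183%), WT+MMSET1 minus WT (0%) and CDM+MMSET1 minus CDM (0.00916%), and for the difference between the active against dead comparisons with and without MMSET I (0%). At an unadjusted p under 0.05 there was 1 probe set of 12 in each of the first 2 comparisons and 0 in the others. Over all 54613 probe sets there were 4898 and 4104 in the first 2 and 1589, 1645, 2667 and 2084 in the others, so the members' counts are near the background.

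**Figure D3:**
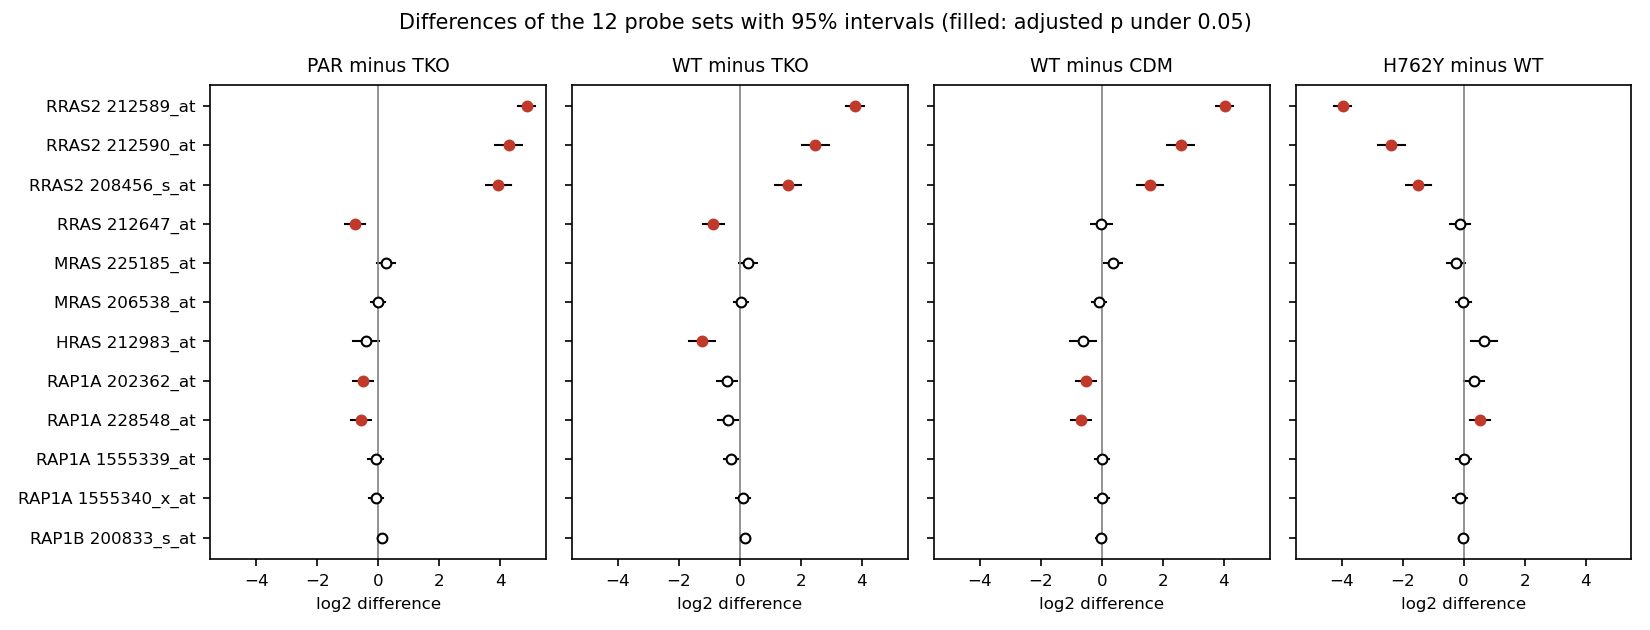
Log2 differences of the 12 probe sets in 4 comparisons, with 95% intervals from limma. Filled points passed an adjusted p of 0.05. RRAS2 lies at 4.87, 3.77, 4.03 and -3.96 on 212589_at from left to right, while MRAS and RAP1B lie near 0.

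Other genes of the RAS pathway were read on the brightest probe set of each, for 102 of 114 listed genes. In PAR minus TKO 13 were higher and 12 lower, where 8.17% and 5.75% of all 19775 genes were. In WT minus TKO 21 were higher and 19 lower (13.6% and 11.8% of all genes), and in WT minus CDM 8 and 8 (6.7% and 4.94%). The median difference over the list was -0.09, 0.02 and -0.02 in these comparisons and -0.04, -0.01 and -0.02 over all genes. Calls went in both directions. The counts by list that follow are to be read against these same shares of all genes, and no list was tested as a set.

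Among 27 other GTPases of the RAS branch, 5 were higher and 3 lower in WT than in TKO, and 2 and 1 in WT than in CDM. GEM, a GTPase that inhibits calcium channels, read 7.21 in WT, 5.05 in TKO and 5.28 in CDM (WT minus TKO 2.15, WT minus CDM 1.92, limma adjusted p = 9.75e-08 and 1.28e-06). RERG, a growth inhibitory RAS relative, went the other way. It read 5.04 in PAR and 5.51 in WT against 7.40 in TKO and 7.97 in CDM (PAR minus TKO -2.36, WT minus TKO -1.88, WT minus CDM -2.45, limma adjusted p = 0.000207, 0.00166 and 0.000379). RHEBL1, a relative of the mTOR activator RHEB, was 1.06 higher in WT than in CDM, and RIT1 was lower in PAR and in WT than in TKO (-0.44 and -0.64).

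Exchange factors were higher at 6 and lower at 2 of 15 in WT against TKO, and higher at 2 and lower at 0 in WT against CDM. RASGRP1, which loads GTP on RAS after diacylglycerol binding, read 6.65 in PAR, 6.21 in WT, 4.77 in CDM and 3.92 in TKO, with CDM and TKO dim. PAR minus TKO was 2.73, WT minus TKO 2.28 and WT minus CDM 1.43 (limma adjusted p = 7.48e-08, 2.05e-06 and 0.00189). RAPGEF2, an exchange factor for RAP1, was higher by 1.05, 1.11 and 0.75 in the same comparisons, and RASGRP2, which also acts on RAP1, was lower than TKO by -0.57 in PAR and -0.59 in WT.

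GTPase activating proteins were split at 3 higher and 3 lower of 12 in WT against TKO, and 2 and 1 in WT against CDM. SIPA1L2, of the family that inactivates RAP, was higher by 1.85 in PAR and 1.87 in WT than in TKO (limma adjusted p = 1.31e-08 and 2.49e-08), although its line means of 4.88 and 4.89 were still dim. Its relative SIPA1 was lower in both (-0.57 and -0.68) and SIPA1L3 higher (0.34 and 0.50). RASAL3 was lower in WT than in CDM (-0.62, limma adjusted p = 0.0152).

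Of 14 genes for lipid modification, processing and trafficking of RAS, 3 were higher and 1 lower in WT than in TKO, and 1 and 1 in WT than in CDM. The latter were 2 depalmitoylases, ABHD17C (0.54) and ABHD17B (-0.43). Among 26 effectors and scaffolds 3 were higher and 8 lower in WT than in TKO, and 0 and 5 in WT than in CDM. PIK3CD, the leukocyte catalytic subunit of PI3 kinase, was lower by -1.72 in PAR and -1.30 in WT than in TKO and by -0.98 in WT than in CDM (limma adjusted p = 2.19e-05, 0.000537 and 0.0168), with a dim mean of 4.92 in PAR. RGL1, which activates RAL, was lower by -0.96, -0.80 and -0.74 in these comparisons, and the RAC activator TIAM1 by -0.84 in WT against CDM. AFDN, a junction scaffold, was higher than TKO by 0.28 in PAR and 0.29 in WT.

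Below RAF, 3 of 4 kinases were measured. MAPK3, which encodes ERK1, was lower than TKO by -0.26 in PAR and -0.29 in WT (limma adjusted p = 0.0422 and 0.0140). In WT against CDM 0 of the 3 were called in limma. Of 5 receptor adaptors above RAS, 1 was higher in each comparison. This was GAB2, which docks PI3 kinase and SHP2, at 8.36 in PAR, 7.99 in WT, 7.005 in CDM and 6.87 in TKO (PAR minus TKO 1.496, WT minus TKO 1.13, WT minus CDM 0.99, limma adjusted p = 1.25e-05, 0.000389 and 0.00436).

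**Figure D4:**
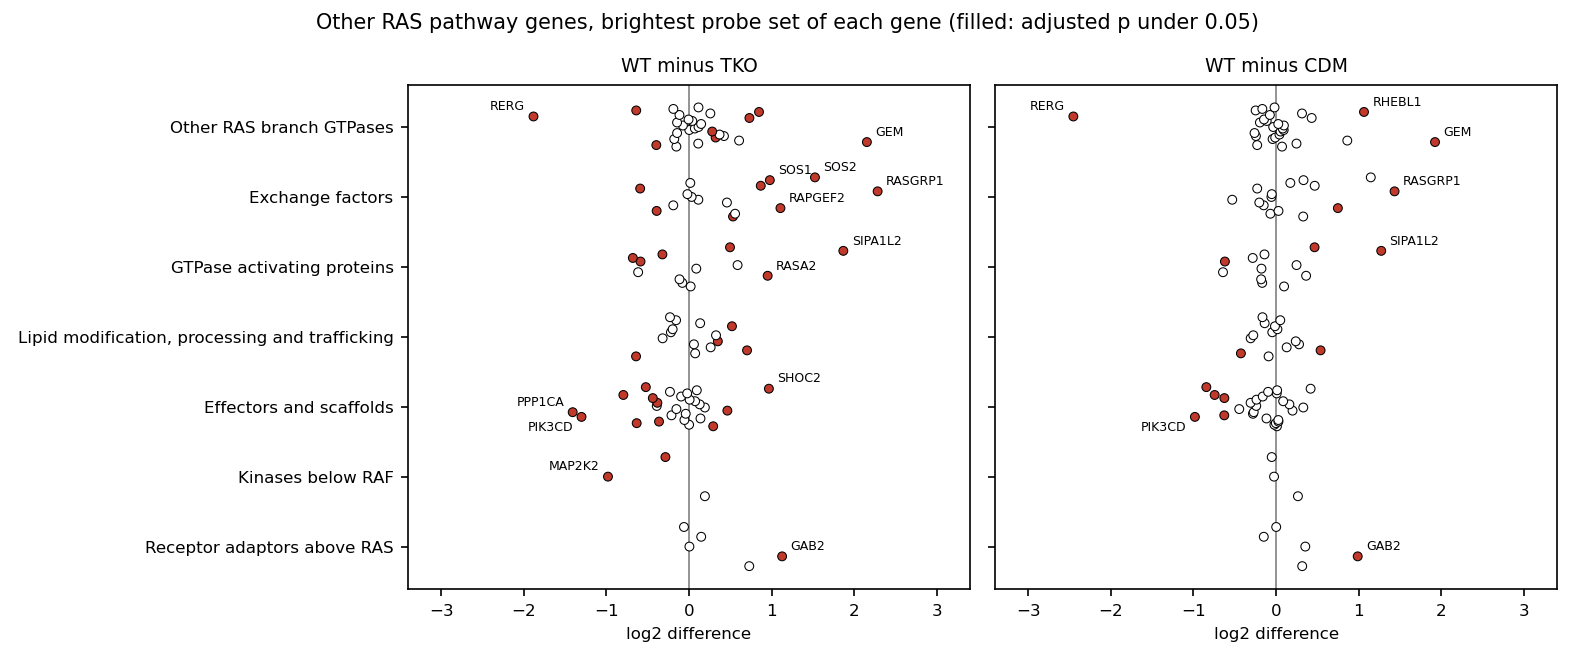
Log2 differences of the other RAS pathway genes by list, for WT minus TKO on the left and WT minus CDM on the right. Each point is the brightest probe set of a gene, and filled points passed an adjusted p of 0.05 in limma. Called genes lie on both sides of 0, with GEM and RASGRP1 farthest to the right and RERG farthest to the left in both panels.

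Genes with a pattern most like RRAS2 were sought among the 524 genes whose line means span at least 2 on the log2 scale, by Pearson's r over the 10 line means. Of these, 256 had r above 0.9 and 23 had r below -0.9, so many genes shared the pattern of RRAS2. Closest were the phosphatase gene PTPN13 (0.998), the microtubule protein gene MAP2 (0.998), RETREG1 (0.997), the RNA-binding protein gene IGF2BP2 (0.997), the protease gene PCSK5 (0.996), EPS8 (0.995), FUT9 (0.994), DPP10 (0.994), RASSF8 (0.993) and ANK2 (0.993). PTPN13 read 7.67 in PAR and 6.77 in WT against 3.97 in TKO and 4.04 in CDM, and RASSF8, which carries a RAS association domain, 5.88 and 5.11 against 3.29 and 3.21. Least like RRAS2 were INSM1 (-0.987), LAMP5 (-0.982), GLRB (-0.979), FIRRM (-0.979) and RERG (-0.975). Spearman's rho of the 10 most alike genes was lower than r, from 0.673 (IGF2BP2) to 0.867 (MAP2, EPS8 and DPP10). The exact order of the lines was thus less alike than r alone shows. Ranking over the 30 single arrays kept 5 of the 10 most alike genes, and leaving out H762Y replicate 1 kept 9.

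**Figure D5:**
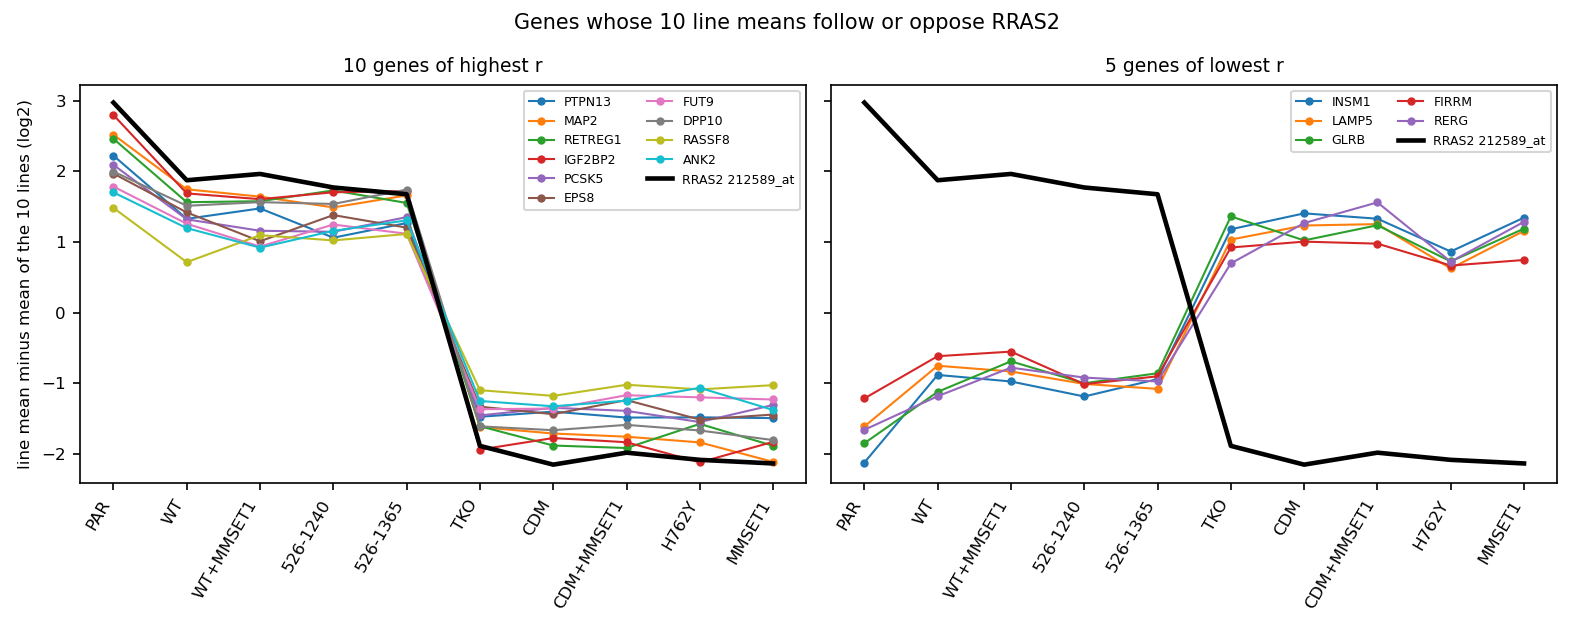
Line means of the 10 genes most like RRAS2 (left) and the 5 least like it (right), each less its own mean over the 10 lines, in log2 units. The black line is RRAS2 on 212589_at. The 10 genes step down between 526-1365 and TKO with RRAS2, and the 5 genes step up.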

How the data were processed

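The authors normalized the arrays by RMA and deposited log2 values, per the design text and per the submitters' processing notes. No version of RMA or chip definition is named in the sources used here. The table held 54613 probe sets of 30 arrays and 0 columns of other series. The platform annotation gave 1 symbol to 41091 probe sets, several to 1801 and none to 11721, and 0 symbols were updated. The genes and lists were chosen with earlier results of these data known.

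With limma 3.58.1 (R 4.3.3), a model with 1 mean per line was fitted to the 54613 probe sets over the 30 arrays, without a filter. It left 20 residual degrees of freedom, and variances were moderated by empirical Bayes. The Benjamini-Hochberg adjustment ran over all probe sets of a comparison. SE is the moderated standard error and n = 3 arrays per line limits the precision. Pathway genes were named by rule, up to 3 per list with the largest differences called in WT minus TKO and moving alike in PAR minus TKO, and up to 3 called in WT minus CDM. Replicate numbers were taken to pair arrays where all 3 correlations of residuals exceeded 0.1, which held in 6 of 18 comparisons (CDM minus TKO, MMSET1 minus TKO, 526-1240 minus WT, 526-1365 minus WT, 526-1365 minus 526-1240 and WT+MMSET1 minus WT). Alternatives were a filter on low values, centred arrays, other variance priors and thresholds, fits of only 2 lines with and without the replicate block, and leaving out each array. The steps were tested on simulated data.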

Additional observations from a re-analysis of the deposited data

How the results depend on the processing

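The alternatives changed no call and no direction of RRAS2 in the comparisons where 212589_at was called. With the mean of the 3 RRAS2 probe sets, uncalled differences changed sign to 0.00125 in H762Y minus TKO, 0.017 in MMSET1 minus TKO, 0.054 in 526-1365 minus WT, 0.12 in 526-1365 minus 526-1240 and 0.072 in the difference between the active against dead comparisons. Leave-one-out values spanned -0.17 to 0.045 for that last difference and -0.0041 to 0.14 for WT+MMSET1 minus WT. The cause of these changes was not tested.

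Counts of called probe sets moved more, through HRAS, RAP1A and RAP1B. The share of all probe sets called under each alternative is not given here, so the counts below show only how the calls depend on the processing. CDM minus TKO gave 3 with the filter on low values and 2 with centred arrays, an intensity trend, only the lines compared or the replicate block, in place of 1. MMSET1 minus TKO gave 2 with the filter, the trend, only the lines compared or the replicate block, in place of 1. The replicate block moved no other count by over 1.5 times. At an adjusted p under 0.01, WT+MMSET1 minus CDM+MMSET1 gave 3 in place of 5. At least 2-fold changes numbered 3 in PAR, 526-1240 and 526-1365 minus TKO, in WT minus CDM and in WT+MMSET1 minus CDM+MMSET1, 1 in CDM+MMSET1 minus TKO and 0 in CDM, H762Y and MMSET1 minus TKO. Leaving out 1 replicate gave counts of 1 to 2 in CDM minus TKO and in H762Y minus TKO, 3 to 5 in WT minus CDM and 3 to 4 in WT+MMSET1 minus CDM+MMSET1. Centring moved the median difference of all probe sets by at most 0.022. The dim level of RRAS2 in 5 lines limits its folds to array values.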
